A study of Mus musculus with 6 samples.

Results

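The Tal1 complex and its ETO corepressors were followed through 10 genes in mouse erythroid cells depleted of the chromatin remodeller Mi2β. The genes are the basic helix-loop-helix factors Tal1 and Lyl1, the E proteins Tcf3, Tcf4 and Tcf12, the LIM-only adaptors Lmo2 and Lmo4, the LIM-binding protein Ldb1, and the ETO family members Cbfa2t3 (also called Eto2) and Cbfa2t2. They were found as every non-control probe of the array that carries one of these gene names, which gave 16 of 55681 probes and 10 of the 22133 genes tested. Of the 10 genes, 5 had 1 probe and 5 had 2 or 3, and all 16 probes were well above background on all 6 arrays. RNA came from G1E-ER-GATA-1 cells, an erythroid progenitor line derived from mouse stem cells without a working Gata1 gene, which carries GATA-1 fused to a hormone-binding domain of the estrogen receptor so that estradiol activates it. Cells of one group received an siRNA against Mi2β (3 samples) and cells of the other a non-targeting control siRNA (3 samples), by nucleofection at 0 h and 24 h. Both groups received β-estradiol at 24 h and were collected at 48 h, so all 6 samples had 24 h of active GATA-1, and none was left without hormone. The comparison therefore shows the effect of the siRNA in hormone-treated cells of a single line. Nothing in the labels states that replicates were grown or nucleofected separately, and every p-value is therefore set against a spread that could be purely technical.

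Tal1 binds DNA at E-boxes as a partner of an E protein. Lmo2 and Ldb1 bridge that pair to a GATA factor, so that one assembly covers an E-box and a neighbouring GATA site, and Ldb1 molecules can pair with each other and bring distant sites together. Cbfa2t3 joins the assembly through the E proteins and brings in corepressors and histone deacetylases. In red-cell precursors the amount of Cbfa2t3 in the complex is known to fall as cells mature and many bound genes are switched on. Lyl1 is a close relative of Tal1 that can bind the same partners, and Lmo4 and Cbfa2t2 are close relatives of Lmo2 and Cbfa2t3.

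The promoters of the 3 genes below are shown because these genes, the 2 Tal1-like factors and the ETO corepressor, passed the threshold at the gene level. The complex binds E-box and GATA letters, of which E-boxes are not marked on their own here. Lmo2 also passed, but no promoter sequence was found for it. Tal1 and Cbfa2t3 each have a second promoter, not printed, with no GATA match and no composite. Each sequence is from RefSeq on GRCm38.p6, runs 5′ to 3′ on the gene's strand, and covers 250 bases before and 50 bases after an annotated start. Capitals mark a GATA match (AGATAA or TGATAA, either strand) or the composite of an E-box fragment (CTG) and a GATA site (CTGNNNNNNNGATAA, CTGNNNNNNNNGATAA or CTGNNNNNNNNNGATAA, either strand).
Cbfa2t3 promoter 1, chr8:122699060-122699359, minus strand: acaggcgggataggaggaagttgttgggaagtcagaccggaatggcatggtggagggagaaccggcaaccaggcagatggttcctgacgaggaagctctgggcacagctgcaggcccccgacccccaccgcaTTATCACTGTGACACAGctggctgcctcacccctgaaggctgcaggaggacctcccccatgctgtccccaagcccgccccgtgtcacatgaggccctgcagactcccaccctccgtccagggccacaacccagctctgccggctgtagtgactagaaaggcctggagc
Tal1 promoter 1, chr4:115056176-115056475, plus strand: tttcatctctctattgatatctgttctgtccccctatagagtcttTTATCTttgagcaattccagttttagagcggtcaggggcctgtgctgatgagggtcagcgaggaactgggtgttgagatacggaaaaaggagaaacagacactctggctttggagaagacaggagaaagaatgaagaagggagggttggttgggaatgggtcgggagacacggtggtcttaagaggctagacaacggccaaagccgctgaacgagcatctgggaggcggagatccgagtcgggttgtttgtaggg
Lyl1 promoter, chr8:84701207-84701506, plus strand: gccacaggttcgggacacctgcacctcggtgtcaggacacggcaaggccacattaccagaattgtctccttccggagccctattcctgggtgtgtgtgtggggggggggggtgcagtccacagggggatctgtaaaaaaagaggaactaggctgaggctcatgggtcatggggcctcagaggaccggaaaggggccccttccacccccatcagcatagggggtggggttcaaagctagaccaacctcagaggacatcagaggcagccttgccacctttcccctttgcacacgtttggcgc

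The GATA match in Cbfa2t3 promoter 1 begins at base -118 from the start, reads on the opposite strand, and belongs to the composite, whose last 3 bases on the printed strand begin the E-box (CANNTG) at -104. Other E-boxes of that promoter begin at -177, -146 and -34. In Tal1 promoter 1 the GATA match begins at -205 and an E-box at 10. The Lyl1 promoter holds an E-box at -235 and no GATA match. Among 32851 RefSeq promoters of the same length, 18.6% held a GATA match, 72.3% an E-box and 2.35% the composite. Of 16 promoters found for 8 of the 10 genes, 3 held a GATA match (in Tal1, Ldb1 and Cbfa2t3), 11 held an E-box, and 1, that of Cbfa2t3, held the composite. A match is a description of these letters and not a bound site.

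The siRNA target was low on every Mi2β siRNA array. Chd4, which encodes Mi2β, had signals of 10943, 9537 and 9417 with Mi2β siRNA, against 22662, 23037 and 21115 with control siRNA, and was 2.48-fold lower (log2 change -1.31, SE 0.10, limma adjusted p = 0.00161). Across all genes, 1105 rose (4.99%) and 1010 fell (4.56%), so 9.56% passed an adjusted p of 0.05, and the median log2 change was -0.03. Log2 values here are the processed signal relative to the 75th percentile of the array, and changes are Mi2β siRNA minus control siRNA. The share of spots well above background was 48.9% to 74.0% on Mi2β siRNA arrays and 53.4% to 56.8% on control arrays. The 10 erythroid markers were all well above background on all 6 arrays, with a summed level of 2080 to 2290 times the 75th percentile with Mi2β siRNA and 1620 to 1760 with control siRNA. Most of that sum was globin signal (Hbb-bt and Hba-a1), and the members went both ways: 2 rose (Hbb-bt and Alas2), 2 fell (Slc4a1 and Kel) and the others did not pass. Replicates 1 and 2 of both groups lay in one row of the slide and replicate 3 of both in the other, so the change of each of the 10 genes is also given within each row. A change in bulk RNA cannot be told apart from a change in the share of cells that carry the transcript.

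Of the 10 genes, 4 passed the threshold, against 9.56% of all genes: Lyl1 rose, and Tal1, Lmo2 and Cbfa2t3 fell. The change of Cbfa2t3 was past 1 on the log2 scale, while the others lay between 0.49 and 0.62 in size. The groups did not overlap in 8 of the 10 genes, against 31.1% of all genes, namely for 2 genes that were higher with Mi2β siRNA (Lyl1 and Tcf4; 12.7% of all genes did so) and for 6 that were lower (Tal1, Lmo2, Ldb1, Tcf3, Cbfa2t2 and Cbfa2t3; 18.4% of all genes). Lmo4 and Tcf12 overlapped. The median log2 change of the 10 genes was -0.26, against -0.03 over all genes. With arrays scaled to their medians in place of the 75th percentile, the median over all genes was -0.27, so small negative changes in this set depend on the scale.

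**Figure D1:**
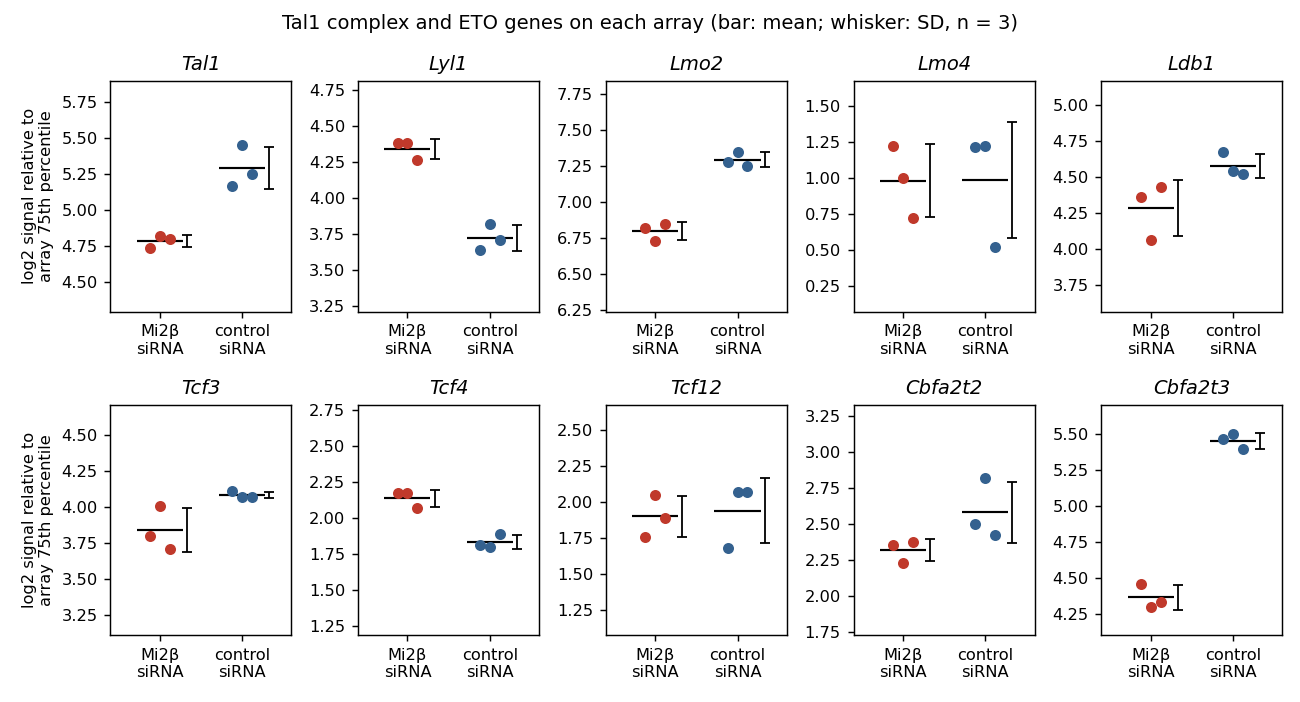
Log2 signal relative to the array's 75th percentile (vertical axis) on each array, with the 3 Mi2β siRNA arrays in red left of the 3 control siRNA arrays in blue, a bar for the mean and a whisker for the SD. Panels differ in level but share one height in log2 units. Cbfa2t3 shows the widest gap, at 4.30 to 4.46 against 5.39 to 5.50.

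Cbfa2t3, the ETO corepressor of the complex, fell to 4.46, 4.30 and 4.33 on the log2 scale with Mi2β siRNA, against 5.46, 5.50 and 5.39 with control siRNA. The 3 Mi2β siRNA arrays were all lower than any control array, by far more than arrays of a group differed among themselves. The means were 4.36 ± 0.08 and 5.45 ± 0.06 (SD, n = 3 each), a 2.12-fold lower level (log2 change -1.09, SE 0.09, 95% interval -1.31 to -0.86, limma adjusted p = 0.00199). Only 4.59% of all genes had a larger change in size. Blocking on the slide row gave an adjusted p of 0.00649. The log2 change was -1.10 in row 1 (2 arrays a group, adjusted p = 0.0391) and -1.06 in row 2 (1 array each, no test). It passed the threshold under all 21 processing alternatives, from -1.32 to -0.70, the smallest as the mean over its 3 probes.

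The array carries 3 Cbfa2t3 probes, which lie on mm9 at chr8:125162758-125162817, chr8:125154010-125154069 and chr8:125152161-125152220 on the minus strand. They begin at bases 992, 2616 and 4484 of the transcripts that the array design assigns to them. The probes at bases 992 and 4484 share an assigned transcript, and the probe at base 2616 is assigned to another. The probe at base 2616 stands for the gene because it is the brightest, with signals of 9749, 7781 and 8151 under Mi2β siRNA and 16272, 16293 and 16489 under control siRNA. The probe nearest the 5′ end, at base 992, is shown because it is a second reading of the fall.
Cbfa2t3 probe at base 992: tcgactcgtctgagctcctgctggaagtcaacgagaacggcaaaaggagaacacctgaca
That probe had signals of 141, 106 and 92.5 with Mi2β siRNA, against 262, 242 and 212 with control siRNA. It again separated the groups without overlap and fell by 1.24 on the log2 scale (SE 0.17, limma adjusted p = 0.0119 over all probes). Without control replicate 1 or 2 its adjusted p was 0.0554 and 0.0571.

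The probe at base 4484 did not follow the other 2. It was dim, at 63.8, 75.1 and 62.2 with Mi2β siRNA and 47.2, 54.2 and 52.0 with control siRNA, and its scaled groups overlapped (log2 change 0.24, SE 0.14, limma adjusted p = 0.399). Set against the base 2616 probe within each array, it stood at -7.26, -6.70 and -7.03 with Mi2β siRNA and at -8.43, -8.23 and -8.31 with control siRNA. The difference of 1.33 had an exact two-sided permutation p of 0.1, the smallest that 3 against 3 arrays allow, and 0.4 after adjustment over the 6 such comparisons between probes of one gene, which were added after the values were seen. The probe at base 992 moved with that at base 2616 to within -0.15 (exact permutation p = 0.4, adjusted 0.48). No annotation of mm9 was used here, so the transcript forms that each probe reads, beyond the transcript assigned to it, are not given.

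Cbfa2t2, the relative of Cbfa2t3, did not pass the threshold. Its single probe, at chr2:154364934-154364993 on mm9, read 2.35, 2.23 and 2.37 with Mi2β siRNA, against 2.50, 2.82 and 2.42 with control siRNA. The groups did not overlap, but their nearest arrays almost met and control replicate 2 stood above the rest. The log2 change was -0.27 (SE 0.13, 95% interval -0.59 to 0.06, limma adjusted p = 0.299), and -0.14 without control replicate 2. It was -0.37 in row 1 (adjusted p = 0.274) and -0.05 in row 2. Within each array, Cbfa2t3 lay above Cbfa2t2 by 2.11, 2.07 and 1.96 with Mi2β siRNA and by 2.96, 2.68 and 2.97 with control siRNA. This gap, of which only the change between groups can be read because probes differ in brightness, was 0.82 smaller with Mi2β siRNA (log2 difference -0.82, exact permutation p = 0.1, the smallest possible, 0.15 adjusted over 3 pairs).

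The 2 tissue-restricted helix-loop-helix factors changed in opposite directions. Lyl1 rose to 4.38, 4.38 and 4.26 with Mi2β siRNA, against 3.64, 3.82 and 3.71 with control siRNA. All Mi2β siRNA arrays lay above all control arrays. The means were 4.34 ± 0.07 and 3.72 ± 0.09 (SD, n = 3 each), a 1.54-fold higher level (log2 change 0.62, SE 0.10, 95% interval 0.38 to 0.86, limma adjusted p = 0.0152), and 13.5% of all genes had a larger change in size. With the row as a block the adjusted p was 0.0314, and the changes in rows 1 and 2 were 0.65 (adjusted p = 0.0911) and 0.55. Without Mi2β siRNA replicate 1 or 2 or control replicate 1 the change was 0.60, 0.60 and 0.58 with adjusted p of 0.0872, 0.0586 and 0.0654, past the threshold no longer. Median scaling gave 0.39 (adjusted p = 0.707).

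Tal1, the factor that names the complex, fell to 4.74, 4.82 and 4.80 with Mi2β siRNA, against 5.17, 5.45 and 5.25 with control siRNA. The groups did not overlap, and the Mi2β siRNA arrays lay closer together than the control arrays. The means were 4.79 ± 0.04 and 5.29 ± 0.15 (SD, n = 3 each), a 1.41-fold lower level (log2 change -0.50, SE 0.11, 95% interval -0.76 to -0.23, limma adjusted p = 0.0424), and 19.1% of all genes had a larger change. This call was lost when any of the 6 arrays was left out (adjusted p 0.0786 to 0.173), with the row as a block (0.0756) and over all probes in place of genes (0.051). The changes were -0.53 in row 1 (adjusted p = 0.158) and -0.44 in row 2.

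The balance of the 2 factors does not depend on how arrays are scaled by a constant. Lyl1 minus Tal1 was -0.36, -0.44 and -0.55 within the Mi2β siRNA arrays, against -1.53, -1.63 and -1.54 within the control arrays. The groups stood 1.12 apart on the log2 scale, far more than the arrays within either. The exact two-sided permutation p was 0.1, the smallest that this design allows, and 0.15 adjusted over the 3 pairs of related genes. The difference kept its sign under all alternatives in which it was computed, from 1.08 to 1.18. The Tal1 probe lies at chr4:114744219-114744278 and the Lyl1 probe at chr8:87228531-87228590 on mm9, both on the plus strand.

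None of the 3 E proteins, the broadly expressed partners of Tal1 and Lyl1, passed the threshold in limma, although Tcf4 had an unadjusted p of 0.0141. Tcf3, the source of E12 and E47, read 3.80, 4.01 and 3.71 with Mi2β siRNA, against 4.11, 4.07 and 4.07 with control siRNA. The control arrays lay close together and the highest Mi2β siRNA array came close beneath them. The log2 change was -0.25 (SE 0.11, 95% interval -0.51 to 0.02, limma adjusted p = 0.246), with -0.19 in row 1 (adjusted p = 0.458) and -0.36 in row 2, and its other probe gave -0.29. The probes lie at chr10:79872639-79872698 (base 2516) and chr10:79875963-79876022 (base 1898) on mm9, minus strand.

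Tcf4 was the only E protein whose arrays were higher with Mi2β siRNA without overlap, at 2.17, 2.17 and 2.07, against 1.81, 1.80 and 1.89 with control siRNA. The log2 change was 0.30 (SE 0.09, 95% interval 0.09 to 0.52, limma adjusted p = 0.0961), with 0.36 in row 1 (adjusted p = 0.179) and 0.18 in row 2, and 0.07 with median scaling. Its second, dim probe had signals of 52.1, 43.2 and 32.9 with Mi2β siRNA and 23.4, 17.1 and 29.0 with control siRNA, a log2 change of 0.75 (SE 0.22, limma adjusted p = 0.109 over all probes). Both probes thus lay on the same side without passing. They lie on chromosome 18 of mm9, at chr18:69842843-69842902 (base 2683) and chr18:69847562-69847621 (base 7402), plus strand. Tcf4 passed under 2 of 21 alternatives, normexp with quantile normalization (0.31, adjusted p = 0.0316) and array weights (0.34, adjusted p = 0.0208).

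Tcf12, also called HEB, read 1.76, 2.05 and 1.89 with Mi2β siRNA, against 1.68, 2.07 and 2.07 with control siRNA. The lowest array of all was a control array and the groups overlapped (log2 change -0.04, SE 0.15, 95% interval -0.41 to 0.33, limma adjusted p = 0.906). The interval still allows a change of either sign, and the change was 0.03 in row 1 (adjusted p = 0.944) and -0.18 in row 2. Its second probe, at base 1848, gave -0.30 (SE 0.14, limma adjusted p = 0.286 over all probes). The brighter probe, at base 4396, lies at chr9:71692310-71692369 on mm9, minus strand, and the coordinates that the files give the other span 28 of its 60 bases.

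Lmo2, the LIM-only adaptor of the complex, fell to 6.82, 6.73 and 6.85 with Mi2β siRNA, against 7.28, 7.35 and 7.25 with control siRNA. All Mi2β siRNA arrays lay beneath all control arrays, with little spread in either group. The means were 6.80 ± 0.06 and 7.29 ± 0.05 (SD, n = 3 each), a 1.41-fold lower level (log2 change -0.49, SE 0.09, 95% interval -0.71 to -0.27, limma adjusted p = 0.024), and 19.7% of all genes had a larger change. Its single probe, at chr2:103821857-103821916 on mm9, had signals of 50306, 41980 and 46754 with Mi2β siRNA and 57724, 58518 and 59881 with control siRNA. With the row as a block the adjusted p was 0.0491, and the changes in rows 1 and 2 were -0.54 (adjusted p = 0.109) and -0.40. Leaving out any of the 6 arrays ended the call (adjusted p 0.0522 to 0.111), with changes of -0.51 to -0.46.

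Lmo4 gave no such difference. It read 1.22, 1.00 and 0.72 with Mi2β siRNA, against 1.21, 1.22 and 0.52 with control siRNA, so replicate 3 was the lowest of both groups and the ranges overlapped. The log2 change was -0.01 (SE 0.24, 95% interval -0.59 to 0.57, limma adjusted p = 0.991), an interval that includes a change as large as that of Lmo2. It was -0.11 in row 1 (adjusted p = 0.662) and 0.20 in row 2. Its probes lie at chr3:143851697-143851756 (base 1441, the brighter) and chr3:143856878-143856937 (base 850) on mm9, minus strand. The probe at base 850 gave 0.17 (limma adjusted p = 0.559 over all probes). Lmo4 minus Lmo2 was -5.61, -5.74 and -6.13 within Mi2β siRNA arrays and -6.07, -6.12 and -6.73 within control arrays, a difference of 0.48 with an exact permutation p of 0.3.

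Ldb1, the dimerising scaffold, read 4.36, 4.06 and 4.43 with Mi2β siRNA, against 4.67, 4.54 and 4.52 with control siRNA. The groups did not overlap, but Mi2β siRNA replicate 2 stood well beneath the rest. The log2 change was -0.29 (SE 0.13, 95% interval -0.60 to 0.03, limma adjusted p = 0.248) and -0.18 without that array. It was -0.39 in row 1 (adjusted p = 0.249) and -0.08 in row 2. Its probe lies at chr19:46107487-46107546 on mm9, minus strand.

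**Figure D2:**
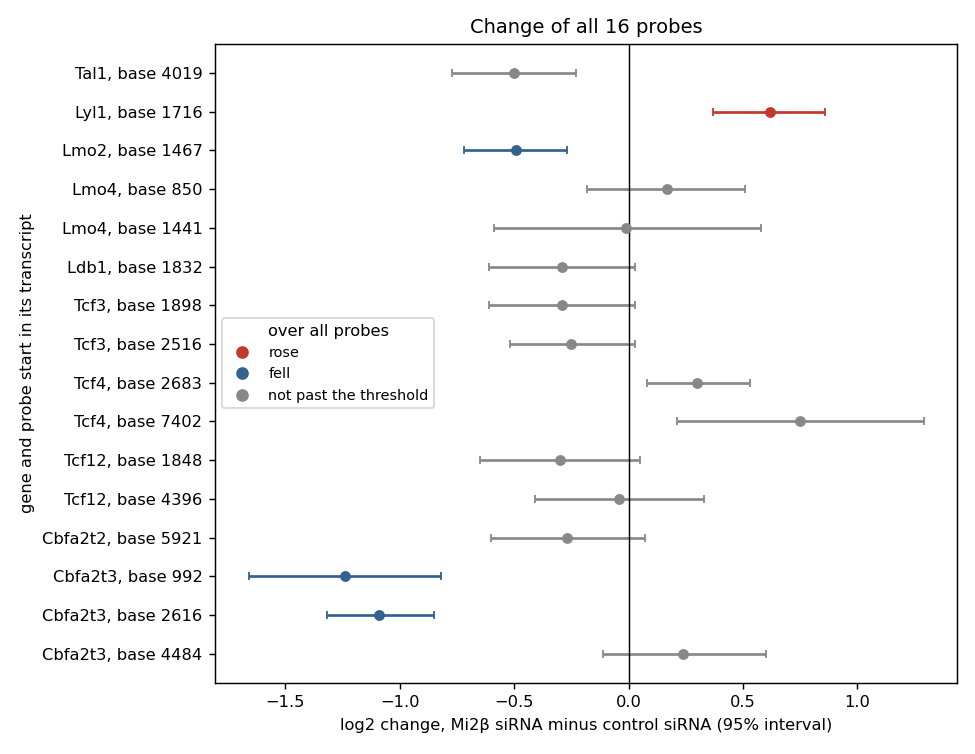
Log2 change of each of the 16 probes, Mi2β siRNA minus control siRNA (horizontal axis, point), with its 95% interval (bar), ordered by gene and by the probe's start in the transcript, and coloured by the limma call over all probes. Of the probes, 1 rose (4.31% of all probes did) and 3 fell (3.88%), 4 in all against 8.19% of all probes, and the third Cbfa2t3 probe, at base 4484, lies to the right of 0 while the other 2 lie at -1.24 and -1.09.

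**Figure D3:**
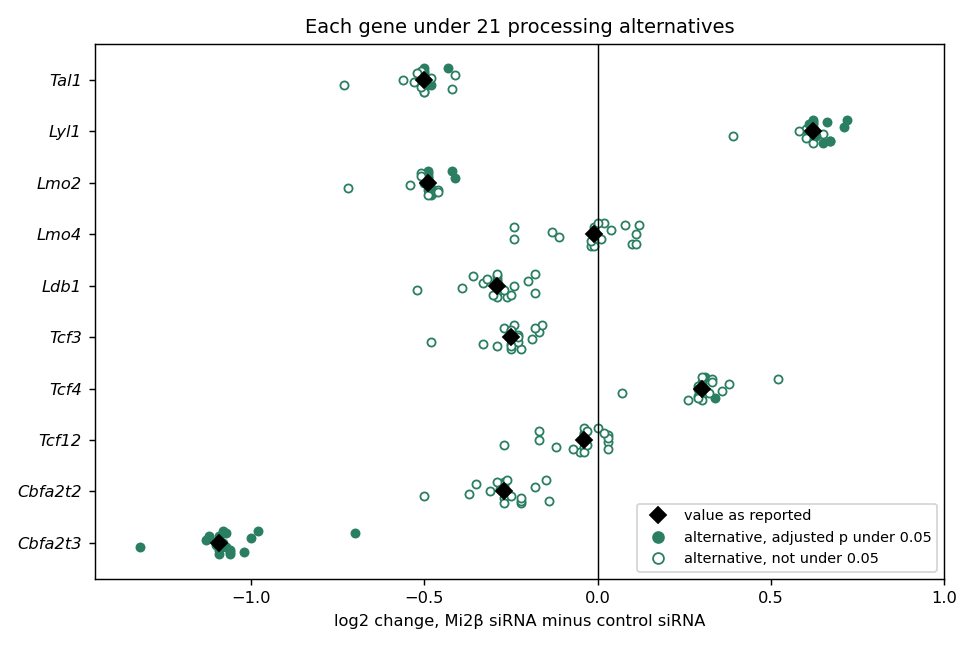
Log2 change of each gene, Mi2β siRNA minus control siRNA (horizontal axis), as reported (diamond) and under each of the 21 processing alternatives (circles, filled where the adjusted p was under 0.05). All circles of Cbfa2t3 are filled, against 14 of 21 for Lyl1, 11 for Lmo2 and 9 for Tal1, and only Lmo4 and Tcf12 cross 0.

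The genes that work beside the complex were read in 5 lists, whose counts stand beside the 9.56% of all genes that passed. Among DNA-binding partners in blood progenitors, 11 of 12 were tested, 1 rose (4.99% of all genes did) and 2 fell (4.56% of all genes), and the median log2 change was -0.06. Gata2, the GATA factor that GATA-1 displaces from many sites as erythroid cells mature, rose 2.33-fold, with signals of 2606, 2021 and 2115 under Mi2β siRNA and 922, 790 and 887 under control siRNA (log2 change 1.22, SE 0.10, limma adjusted p = 0.00199). Runx1, a core-binding factor, fell (log2 change -0.93, SE 0.10, limma adjusted p = 0.00388), with signals of 3590, 3315 and 3502 under Mi2β siRNA and 5451, 6031 and 6420 under control siRNA. Fli1, an ETS factor, fell by the same size (log2 change -0.93, SE 0.13, limma adjusted p = 0.0106), with 1140, 1019 and 1194 under Mi2β siRNA and 1815, 2143 and 1828 under control siRNA. The 3 genes, named because they passed, separated the groups without overlap, as did 31.1% of all genes. The Fli1 call was lost without Mi2β siRNA replicate 1 (adjusted p = 0.0632). In slide row 1 alone Runx1 and Fli1 did not pass (adjusted p = 0.0562 and 0.0546). With median scaling none of the 3 passed, at log2 changes of 0.99 for Gata2 (adjusted p = 0.145), -1.16 for Runx1 (0.0519) and -1.16 for Fli1 (0.0501).

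Some markers of megakaryocytes, the platelet-forming lineage, were lower with Mi2β siRNA. Of 8 megakaryocyte markers, 6 were well above background on all arrays and Ppbp on none, and their summed level was 16.0 to 20.3 times the 75th percentile with Mi2β siRNA, against 40.9 to 46.5 with control siRNA. Among the 6 tested, 3 fell (Pf4, Gp9 and Gp1ba), against 4.56% of all genes. The mast cell list had 3 of 6 markers above background on all arrays, with Fcer1a, Mcpt8 and Ms4a2 on none, and a summed level of 2.58 to 3.07 with Mi2β siRNA and 0.987 to 1.17 with control siRNA, in which Hdc rose. Lymphocyte markers (3 of 6 above background on all arrays, Ms4a1 on none) summed to 8.30 to 9.58 with Mi2β siRNA and 9.03 to 10.7 with control siRNA. Macrophage and granulocyte markers (3 of 5, Mpo on none) summed to 4.59 to 4.99 with Mi2β siRNA and 4.54 to 6.02 with control siRNA. Fibroblast markers (1 of 4, Col1a1 and Pdgfra on none) summed to 0.156 to 0.273 with Mi2β siRNA and 0.163 to 0.196 with control siRNA. The part of these cell types in the changes of the complex was not tested.

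The list of corepressors that ETO proteins recruit also holds DNA-binding repressors, among them Gfi1b and Zbtb16, to which that name does not apply. Of its 19 genes 16 were tested, none rose and 3 fell (4.56% of all genes did). An unadjusted limma p under 0.05 was found for 8 (23.9% of all genes), and the median was -0.28. Ncor1, the nuclear receptor corepressor, fell (log2 change -0.51, SE 0.11, limma adjusted p = 0.0465), with signals of 3305, 2541 and 2671 under Mi2β siRNA and 3997, 3286 and 3660 under control siRNA. Gfi1b, a zinc-finger repressor of the erythroid and megakaryocytic lineages, fell (log2 change -0.43, SE 0.09, limma adjusted p = 0.0402). Zbtb16, a repressor also called PLZF, fell (log2 change -0.64, SE 0.09, limma adjusted p = 0.0122). The unscaled signals of Ncor1 overlapped between the groups, and its call was lost under 14 of 21 alternatives, that of Gfi1b under 12 and that of Zbtb16 under 6. With the row as a block Ncor1 and Gfi1b did not pass (adjusted p = 0.0743 and 0.0699), and the mean over the Ncor1 probes was -0.29 (adjusted p = 0.13). Leaving out any 1 array ended the calls of Ncor1 and Gfi1b, and that of Zbtb16 ended without Mi2β siRNA replicate 1 or control replicate 1 (adjusted p = 0.0726 and 0.0577).

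Of the E-protein inhibitors and tissue-restricted relatives, 5 of 11 were tested, none rose and 1 fell (4.56% of all genes did), 2 had an unadjusted p under 0.05 (23.9% of all genes), and the median was -0.26. Id3, which holds E proteins off DNA, had signals of 45.4, 30.1 and 35.5 with Mi2β siRNA, against 66.3, 62.9 and 52.5 with control siRNA, and fell (log2 change -0.87, SE 0.17, limma adjusted p = 0.0309). The groups did not overlap, yet the call was lost when any array but control replicate 3 was left out (adjusted p 0.0666 to 0.111) and with quantile normalization (-1.13, adjusted p = 0.125). Its probe is dim, and with normexp background correction the change was -0.44 (adjusted p = 0.0132). In the list of LIM-only, LDB and SSBP adaptors, none of the 5 tested passed in limma, 2 had an unadjusted p under 0.05 (23.9% of all genes), and the median was 0.11. The largest changes by size were in single-stranded DNA-binding proteins that attach to Ldb1. Ssbp2 had a log2 change of -0.44 (SE 0.12, limma adjusted p = 0.0829) and Ssbp4 one of 0.45 (SE 0.13, limma adjusted p = 0.106), and 6 and 5 of the 21 alternatives put them past the threshold.

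Genes known to be bound by the complex in erythroid cells moved both ways. All 22 were tested, 4 rose (4.99% of all genes did) and 4 fell (4.56% of all genes), and the median was -0.01. Epb42, a protein of the red-cell membrane skeleton, rose 3.60-fold, at 94.9, 67.6 and 98.3 with Mi2β siRNA and 19.8, 21.7 and 23.2 with control siRNA (log2 change 1.85, SE 0.15, limma adjusted p = 0.00176). Its control signals are near background, and with normexp the change was 0.69 (adjusted p = 0.00164), or 0.67 with quantile normalization added, still past the threshold. Alas2, the first enzyme of haem synthesis in red cells, rose 2.09-fold (log2 change 1.06, SE 0.12, limma adjusted p = 0.00467), a call lost with median scaling (0.83, adjusted p = 0.309). Ahsp, the chaperone of free alpha globin, fell 2.15-fold, at 64952, 58996 and 74513 with Mi2β siRNA and 123916, 127564 and 133069 with control siRNA (log2 change -1.11, SE 0.12, limma adjusted p = 0.00451). Slc4a1, the band 3 anion exchanger, fell 2.05-fold (log2 change -1.04, SE 0.15, limma adjusted p = 0.0121), a call lost without Mi2β siRNA replicate 1 and without control replicate 1 or 2 (adjusted p 0.0519 to 0.0533). The other genes past the threshold, named after their values were seen, were Hbb-bt (0.81) and Icam4 (0.48), which rose, and Nfe2 (-0.78) and Tspan33 (-0.49), which fell. Each of these 4 calls was lost without Mi2β siRNA replicate 1 (adjusted p 0.0545 to 0.116), and those of Icam4, Nfe2 and Tspan33 also without any of several other arrays. Hbb-bt is a beta-globin gene with near-identical copies, which its probe may not separate. Alas2, Epb42, Ahsp and Slc4a1, named for the size of their changes, had groups that did not overlap, as did 31.1% of all genes.

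**Figure D4:**
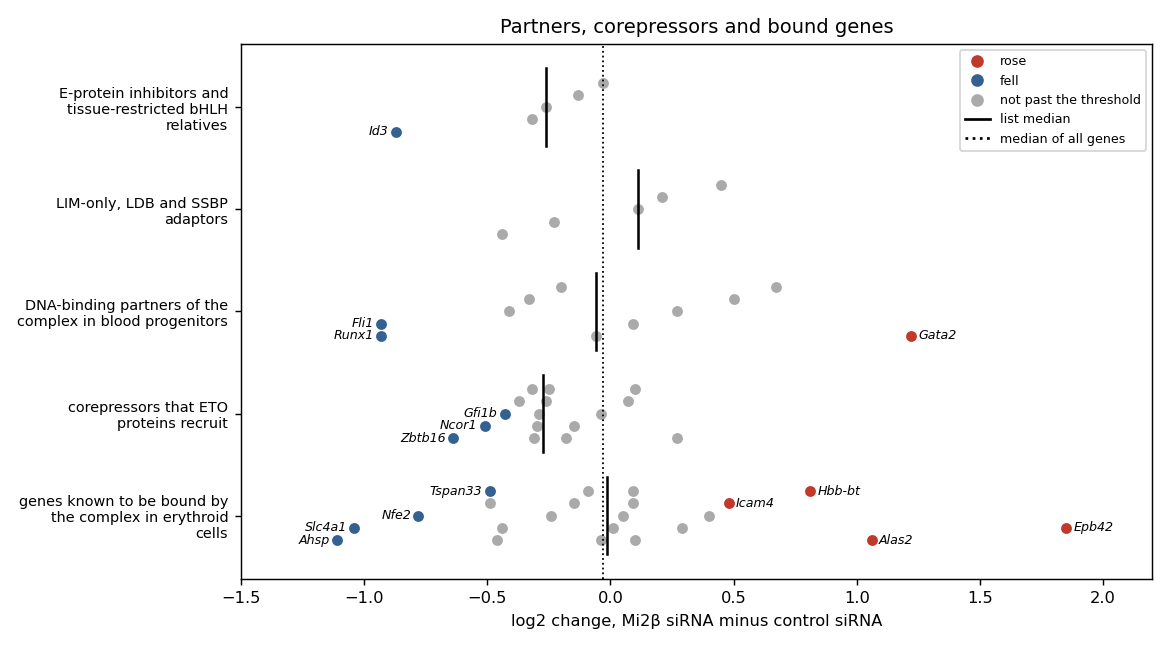
Log2 change of each tested gene in the 5 lists, Mi2β siRNA minus control siRNA (horizontal axis), with genes that rose in red, genes that fell in blue and the rest in grey, a solid line for the list's median and a dotted line for the median of all genes, -0.03. Vertical position within a list only separates points. Epb42 (1.85, but 0.69 and behind Gata2 with normexp) and Gata2 (1.22) lie farthest right, and Ahsp (-1.11) and Slc4a1 (-1.04) farthest left.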

How the data were processed

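Total RNA of 6 samples was labelled with Cy3 and hybridised to 1-colour Agilent arrays of 62976 spots. The deposited files hold spot intensity on a linear scale, per the file headers, background-subtracted by the scanner software, with no normalization between arrays. The file headers give that software as Feature Extraction 10.7.3.1, and the submitters' processing notes name it together with limma, without settings. The deposited value table holds the same intensity values to within 0.205% and served as an alternative. Control spots and spots with outlier flags were left out, spots of a probe were averaged, and log2 of the processed signal was set relative to the 75th percentile over the non-control spots of each array. The fit took 31853 probes that were well above background on 3 or more arrays, and the probe with the highest mean stood for its gene. Names were updated through RefSeq accessions (27509 of 29150 matched, 2017 names changed). Coordinates of probes are those of the files' build, mm9, and no mm9 genome was used here. Precision is limited by 3 arrays per group. All arrays lay on 1 slide and were scanned once.

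Groups were compared with limma 3.58.1 in R 4.3.3 (lmFit, eBayes, two-sided), adjusted by Benjamini-Hochberg over all 22133 genes, or all probes, with a threshold of 0.05. "Rose" and "fell" are used of values past it. Pairs of genes were compared within arrays by exact permutation. The fit was tested on simulated data. Named are all 10 genes with every probe, Chd4, and in each list the genes past the threshold, the 4 largest changes where more passed, or the 2 largest where none did. Marker lists are given as counts and sums, and their called genes were named after their values were seen. The 10 genes and the lists were chosen with earlier results of these data known. Alternatives covered background correction, scaling, filters, choice of probe, variance model, array weights, slide row, replicate block, the value table and leaving out each array.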

Additional observations from a re-analysis of the deposited data

How the results depend on the processing

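The count of changed genes was 2115 and depended on the processing. It was 831 with median scaling (496 rose, 335 fell), 993 with no detection filter, 720 in slide row 1 alone, 3306 with an intensity trend, 3548 with normexp and quantile normalization and 4729 with array weights, and 813 to 1579 with 1 array left out. Of the 10 genes, 4 passed. That count was 1 with median scaling, with no detection filter and in slide row 1 alone, and 1 to 2 with 1 array left out. The gene left in each count of 1 was Cbfa2t3. Of the 16 probes, 4 passed, against 2 with median scaling, 1 with no detection filter, 1 in slide row 1 alone, 7 with array weights, and 1 to 3 with 1 array left out. Fits that leave out an array, or use row 1, have fewer samples, and the fit with no filter adjusts over more genes (34938). The median change over all genes was -0.27 with median scaling and -0.03 in the values reported. The cause of the other differences was not tested.

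The replicate numbers are shared between the groups, and the labels do not say whether a number marks a shared day or culture. The deviations of same-numbered arrays correlated at 0.21, -0.32 and 0.13, and not every array correlated best with its own number. So few arrays cannot decide whether the numbers pair the samples. With the replicate number as a block, 685 genes (502 rose, 183 fell), 1 of the 10 genes and 2 of the 16 probes passed.

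Only Lmo4, Tcf12 and 1 Lmo4 probe changed sign. Lmo4 was 0.04 with quantile normalization, 0.02 with normexp and quantile normalization, 0.08 as a mean over probes, 0.10 with array weights, 0.01 with the percentile taken over averaged probes and -0.24 to 0.12 with 1 array left out, above 0 without Mi2β siRNA replicate 3 (0.12) and without control replicate 1 or 2 (0.11). Tcf12 was 0.03 with quantile normalization and in row 1 alone, and -0.17 to 0.03 with 1 array left out, above 0 without Mi2β siRNA replicate 1 and without control replicate 2 or 3 (0.02). The Lmo4 probe at base 850 was -0.07 with median scaling. The differences within arrays between pairs of genes kept their signs under every alternative in which they were computed. Taking the 75th percentile over averaged probes or over spots without outlier flags was chosen after seeing the data and gave 2016 and 2112 changed genes, with 4 of the 10 genes past the threshold each time.

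The 3 dimmest probes, those of Cbfa2t3 at bases 992 and 4484 and of Tcf4 at base 7402, lie nearest the background. The fall of the Cbfa2t3 probe at base 992 missed the threshold with no detection filter and without control replicate 1 or 2, at adjusted p of 0.0514, 0.0554 and 0.0571.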
